A study of Mus musculus with 8 samples.

Results

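GABA-A receptors are the chloride channels through which the transmitter GABA inhibits cortical neurons quickly. Each channel is a ring of subunits, usually built from alpha and beta subunits with a gamma or a delta subunit, and the alpha subunit largely sets where the channel sits and which drugs act on it. Channels at synapses carry brief phasic currents, whereas channels with alpha4, alpha5 or delta subunits are known mainly from outside the synapse, where they carry a steady tonic current. In rodents, changes of GABAergic inhibition are known to bear on fear learning.

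The transcripts of 7 GABA-A receptor subunit genes, Gabra2, Gabra3, Gabra4, Gabra5, Gabrb1, Gabrb2 and Gabrd, were followed in 8 samples of mouse medial prefrontal cortex. They were taken by symbol, 1 row each, from a table of 22609 gene rows, and all 7 passed the filter on low values. All animals were B6.SJL mice of 3 months, and the tissue was the anterior cingulate part of both hemispheres, taken 1 h after training. Fear conditioning mice (4 biological replicates) explored a conditioning box for 3 min, were then given 2 shocks to the feet (0.8 mA for 2 s, 30 s apart), and were left there for another 15 s. Context control mice (4 biological replicates) went through the same procedure without a shock. Whether a replicate is 1 animal or a pool is not given in the sources used here. Values are gene reads scaled by a factor per sample, here called scaled reads, with no correction for gene length, and means are given ± SD with n = 4 per group.

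The libraries held between 1992452 and 3565356 gene reads, of which a single subunit gene had between 42 and 2616 in a sample. The neuronal markers Snap25, Syt1, Rbfox3, Stmn2, Eno2 and Tubb3 summed to between 9498 and 12603 scaled reads in fear conditioning samples and between 9225 and 12285 in context controls. Context control replicate 3 stood apart with a sum of 7933 over 6 oligodendrocyte markers, where the other samples held between 2213 and 4311. It also held the highest sums of astrocyte (19184), microglia (1395) and endothelial (1277) markers and the lowest sum of deep-layer markers (750.2). Of 6 markers each for astrocytes, oligodendrocytes, microglia and endothelial cells, 0 had an estimate above 0 in fear conditioning against context control cortex, and none passed the test used for the subunits. At an unadjusted p under 0.05 there were 1 astrocyte and 2 endothelial markers, and the groups did not overlap for 1 astrocyte marker. Among all genes tested, 2.7% had an unadjusted p under 0.05 in the same test, 1.92% did not overlap and 51.8% lay above 0. The part of cell composition in the subunit values was not tested. The libraries also differed in base composition. GC tilt is the median log2 deviation of the 972 genes richest in G and C (57.6% or more of the transcript) minus that of the 972 poorest (41.7% or less). It was 0.73, 0.88, -0.34 and -1.26 in fear conditioning replicates 1 to 4, and 0.34, 0.60, -0.70 and -0.23 in context control replicates 1 to 4. The transcripts of the 7 genes ranged from 38.4% G and C in Gabra2 to 56.8% in Gabrd.

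The genes lie on 5 chromosomes in the RefSeq annotation of the mouse genome (GRCm38.p6), with Gabra2, Gabra4 and Gabrb1 on chromosome 5, Gabrd on 4, Gabra5 on 7, Gabrb2 on 11 and Gabra3 on X. Gabra4 and Gabrb1 start head to head on opposite strands, and their annotated transcribed regions overlap by 388 bases, so reads from the overlap could not be assigned to either gene without strand information, which the sources used here do not give. The RefSeq promoter table, which spans 250 bases before to 50 after a start, holds 10 windows for 6 of the 7 genes and none for Gabrd. The head-to-head pair is shown because these neighbours differed widely in level, and the first listed Gabrb2 window because Gabrb2 was the most abundant of the 7 and because it alone held 2 of the motifs searched. Capitals mark the motifs TATAAA and TGACG, where TGACG is read on the opposite strand and so appears as CGTCA.

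Gabra4 (chr5:71658259-71658558, minus strand): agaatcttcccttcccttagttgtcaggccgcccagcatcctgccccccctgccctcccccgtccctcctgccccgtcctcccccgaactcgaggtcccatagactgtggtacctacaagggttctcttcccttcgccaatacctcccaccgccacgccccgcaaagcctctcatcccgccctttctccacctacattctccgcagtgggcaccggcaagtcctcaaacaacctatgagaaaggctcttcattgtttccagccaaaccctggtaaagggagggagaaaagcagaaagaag

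Gabrb1 (chr5:71657671-71657970, plus strand): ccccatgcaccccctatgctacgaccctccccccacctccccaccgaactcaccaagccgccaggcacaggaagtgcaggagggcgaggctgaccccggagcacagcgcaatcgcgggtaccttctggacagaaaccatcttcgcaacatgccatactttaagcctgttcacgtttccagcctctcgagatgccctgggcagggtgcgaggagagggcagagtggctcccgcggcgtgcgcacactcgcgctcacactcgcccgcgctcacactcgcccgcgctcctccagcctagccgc

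Gabrb2 (chr11:42420190-42420489, plus strand): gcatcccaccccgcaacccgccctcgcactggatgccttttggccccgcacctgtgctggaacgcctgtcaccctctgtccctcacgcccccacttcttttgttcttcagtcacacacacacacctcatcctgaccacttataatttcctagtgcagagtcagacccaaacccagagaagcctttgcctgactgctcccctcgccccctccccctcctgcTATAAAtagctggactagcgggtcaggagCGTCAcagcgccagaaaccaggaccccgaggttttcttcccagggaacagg

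The motifs searched on both strands were the cAMP response element TGACGTCA and its core TGACG, which lies within it, the Egr motif GCGTGGGCG, the AP-1 motif TGACTCA and the TATA motif TATAAA. Across all 32851 windows of the table, 20.8% held TGACG and 13.6% held TATAAA. Among the 10 subunit windows, 1 held TGACG (Gabrb2) and 3 held TATAAA (Gabrb2 and both Gabra3 windows, which overlap each other). None of the 10 held TGACGTCA, GCGTGGGCG or TGACTCA, which 1.79%, 0.612% and 5.20% of all windows held.

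No subunit transcript passed the test between fear conditioning and context control cortex 1 h after training. In limma on log2(scaled reads + 1), two-sided with Benjamini-Hochberg adjustment over 14704 genes, 0 of the 7 had an adjusted p under 0.05, where 0.0% of all genes did. At an unadjusted p under 0.05 the count was 0 of 7 against 2.7% of all genes (1.18% higher and 1.52% lower in conditioned cortex), and the groups overlapped for all 7, where 1.92% of all genes had groups that did not overlap. On the recovered reads, edgeR's quasi-likelihood test and DESeq2 also called 0 of 7 and 0.0% of all genes after adjustment, and 0 of 7 at an unadjusted p under 0.05, where they called 2.62% and 2.31% of all genes. Of the 7 estimates, 5 lay above 0 and 2 below, where 51.8% of all genes lay above 0, with a median log2 change of 0.14 beside 0.01 over all genes tested. This median was 0.046 under quantile normalization, 0.051 with array weights, -0.046 in replicates 1 and 2 only and between 0.067 (without control replicate 1) and 0.24 (without conditioned replicate 2) with a sample left out. In the main limma fit the adjusted p was 0.9998 for each of the 7 genes. The 95% confidence intervals reached between 0.35 and 0.74 log2 units to either side. These widths are not adjusted over the 14704 genes. Changes larger than these could therefore also fail to pass the adjusted threshold with these samples.

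**Figure D1:**
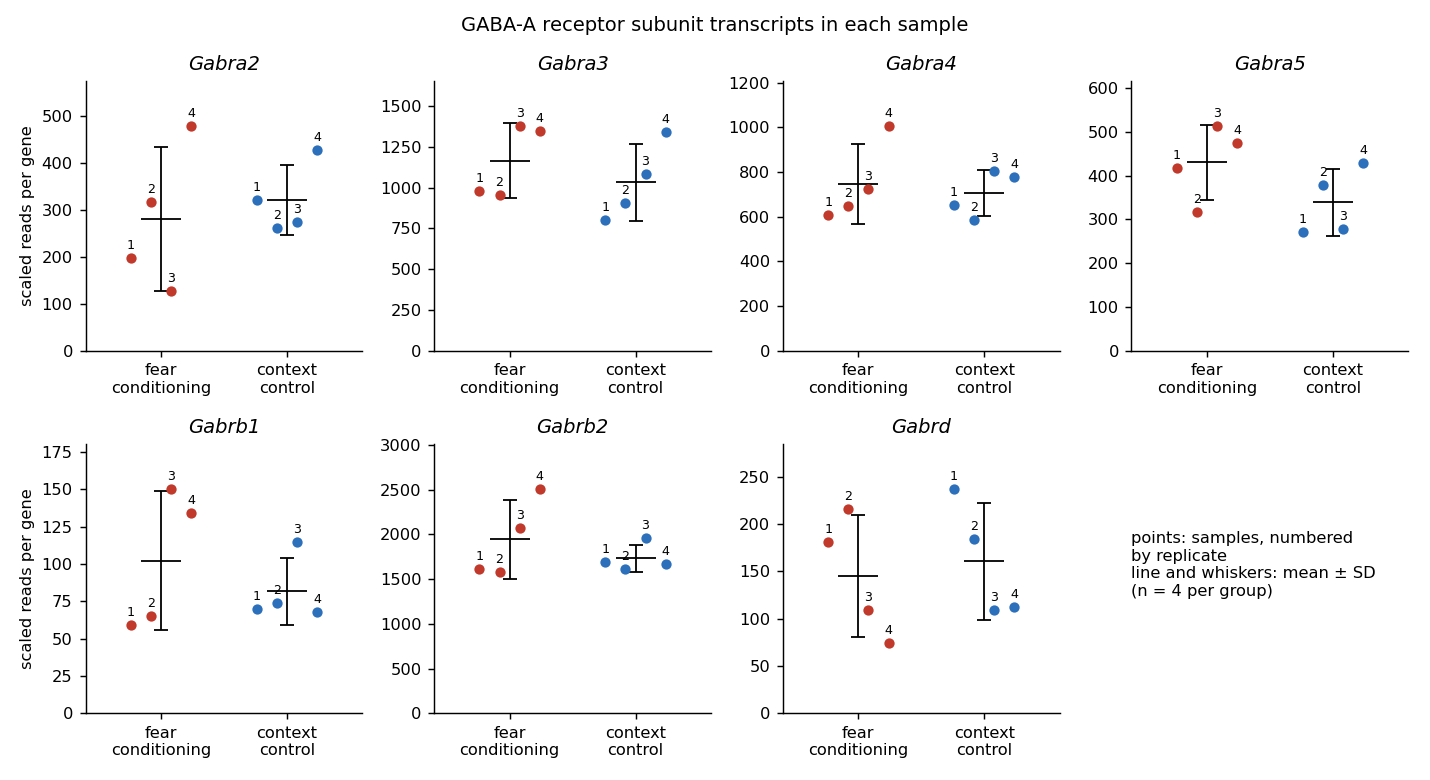
Scaled reads of each subunit gene (vertical axes, starting at 0) in fear conditioning (red) and context control (blue) samples, numbered by replicate, with mean ± SD (n = 4 per group). The groups overlap for all 7 genes, and the conditioned samples 3 and 4 hold the highest value of 6 of them between them.

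Among the alpha subunits, Gabra5 had the largest positive estimate. It encodes alpha5, known from extrasynaptic channels and from work on hippocampal learning in rodents. Gabra5 had 417, 317, 514 and 475 scaled reads in fear conditioning replicates 1 to 4, against 272, 379, 278 and 428 in context control replicates 1 to 4. Conditioned samples 3 and 4 lay above every control, while conditioned samples 1 and 2 lay within the range of the controls. The means were 431 ± 85.6 in conditioned and 339 ± 76.7 in control cortex (SD, n = 4 each), a log2 change of 0.35 (95% interval -0.09 to 0.78, SE 0.20, limma unadjusted p = 0.107, adjusted p = 0.9998).

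Gabra2, whose product alpha2 is found at synapses and on axon initial segments and is tied to the anxiety-reducing action of benzodiazepines in mice, varied widely among the conditioned samples. Scaled reads of Gabra2 were 197, 317, 128 and 479.7 in fear conditioning replicates 1 to 4, against 322, 262, 274 and 428 in context control replicates 1 to 4. Both the lowest and the highest sample of the series were conditioned ones. Counting error was small beside this spread, with an exact Poisson 95% interval of 104 to 157 for conditioned replicate 3 (94 reads) and of 439 to 524 for conditioned replicate 4 (500 reads). Such intervals cover counting error only. The means were 281 ± 154 in conditioned and 322 ± 75.6 in control cortex (SD, n = 4 each), a log2 change of -0.34 (95% interval -1.06 to 0.38, limma adjusted p = 0.9998). The estimate was -0.02 without conditioned replicate 3 and -0.65 without conditioned replicate 4.

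Gabra3 and Gabra4 differed less between the groups. Gabra3, on the X chromosome, encodes alpha3, a synaptic subunit, and had 978, 955, 1377 and 1349 scaled reads in fear conditioning replicates 1 to 4, against 799.8, 908, 1081 and 1339 in context control replicates 1 to 4. In both groups samples 3 and 4 lay above samples 1 and 2, and the log2 change was 0.18 (95% interval -0.23 to 0.59). It ran from 0.07 without control replicate 1 to 0.31 without control replicate 4. Gabra4 encodes alpha4, which makes channels insensitive to diazepam and often pairs with delta. It had 609, 649, 723 and 1006 scaled reads in fear conditioning replicates 1 to 4, against 654, 587, 803 and 777 in context control replicates 1 to 4. Conditioned replicate 4 was the highest sample, and the other conditioned samples lay within the range of the controls. The log2 change of Gabra4 was 0.07 (95% interval -0.32 to 0.45) and turned to -0.09 without conditioned replicate 4 and to -0.02 without control replicate 2.

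Beta subunits form part of the GABA binding site. Gabrb2, encoding the widespread beta2, had 1613, 1581, 2072 and 2509.8 scaled reads in fear conditioning replicates 1 to 4, against 1689, 1609, 1958 and 1667 in context control replicates 1 to 4. Conditioned samples 3 and 4 were above all controls, and conditioned sample 2 was the lowest of the 8. The means were 1944 ± 439 in conditioned and 1731 ± 155 in control cortex (SD, n = 4 each), a log2 change of 0.14 (95% interval -0.21 to 0.50), which as a ratio runs from 0.865 to 1.41. It was 0.013 without conditioned replicate 4, 0.24 without conditioned replicate 2 and 0.23 without conditioned replicate 1. Gabrb1, encoding beta1, had 59.4, 65.0, 150.3 and 134 scaled reads in fear conditioning replicates 1 to 4, against 69.8, 73.9, 115 and 67.6 in context control replicates 1 to 4. The conditioned samples formed a low and a high pair, and the log2 change of 0.24 (95% interval -0.46 to 0.94) was 0.41 without control replicate 3, 0.01 without conditioned replicate 3 and 0.07 without conditioned replicate 4.

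Gabrd encodes delta, the subunit of extrasynaptic channels that are sensitive to neurosteroids. Its values were 181, 216, 109 and 74.8 scaled reads in fear conditioning replicates 1 to 4, against 238, 184, 109 and 113 in context control replicates 1 to 4. In both groups samples 1 and 2 lay above samples 3 and 4, the reverse of Gabra3. The means were 145 ± 64.7 in conditioned and 161 ± 61.7 in control cortex (SD, n = 4 each), a log2 change of -0.18 (95% interval -0.93 to 0.56). The change turned to 0.09 without conditioned replicate 4 and to 0.03 without control replicate 1.

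**Figure D2:**
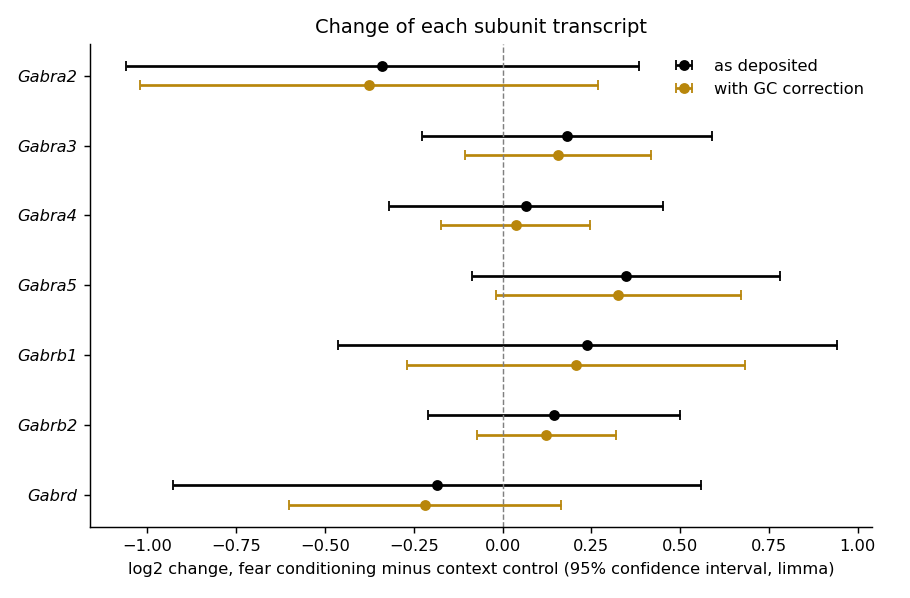
Log2 change of each subunit gene (horizontal axis, fear conditioning minus context control) with its 95% confidence interval from limma, for the deposited values (black) and after GC correction (gold). Every interval includes 0, and the correction shortened the interval of Gabrd most, to 0.38 log2 units on either side, against 0.74 as deposited.

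The differences among samples followed the GC tilt of the libraries for some subunit genes and not for others. The 4 libraries with positive tilt held the 4 highest Gabrd values, between 181 and 238 scaled reads, and the other 4 held between 74.8 and 113. These 4 libraries were replicates 1 and 2 of both groups. The sign of the tilt therefore cannot be told apart from other differences between replicates 1 and 2 and replicates 3 and 4. Conditioned replicate 4, which had the lowest tilt, had the lowest Gabrd and the highest Gabra2, Gabra4 and Gabrb2. The lowest Gabra2 fell in conditioned replicate 3. A GC correction, chosen after seeing the data, subtracted from each library a smooth curve of its deviations on transcript GC content. The SD of the log2 values over the 8 samples was 0.28 with the correction against 0.59 as deposited for Gabrd, 0.09 against 0.26 for Gabra4 and 0.10 against 0.24 for Gabrb2. For Gabra3 it was 0.19 against 0.30 and for Gabrb1 0.35 against 0.52. The SD of Gabra2 was 0.61 against 0.60 and that of Gabra5 0.32 against 0.35, while the median over all genes was 0.32 with the correction and 0.40 as deposited. The corrected log2 changes were -0.38 (95% interval -1.02 to 0.27) for Gabra2, 0.33 (-0.02 to 0.67) for Gabra5, 0.16 (-0.11 to 0.42) for Gabra3, 0.04 (-0.17 to 0.25) for Gabra4, 0.21 (-0.27 to 0.68) for Gabrb1, 0.12 (-0.07 to 0.32) for Gabrb2 and -0.22 (-0.60 to 0.16) for Gabrd. None passed, with adjusted p between 0.902 and 0.979 in limma.

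**Figure D3:**
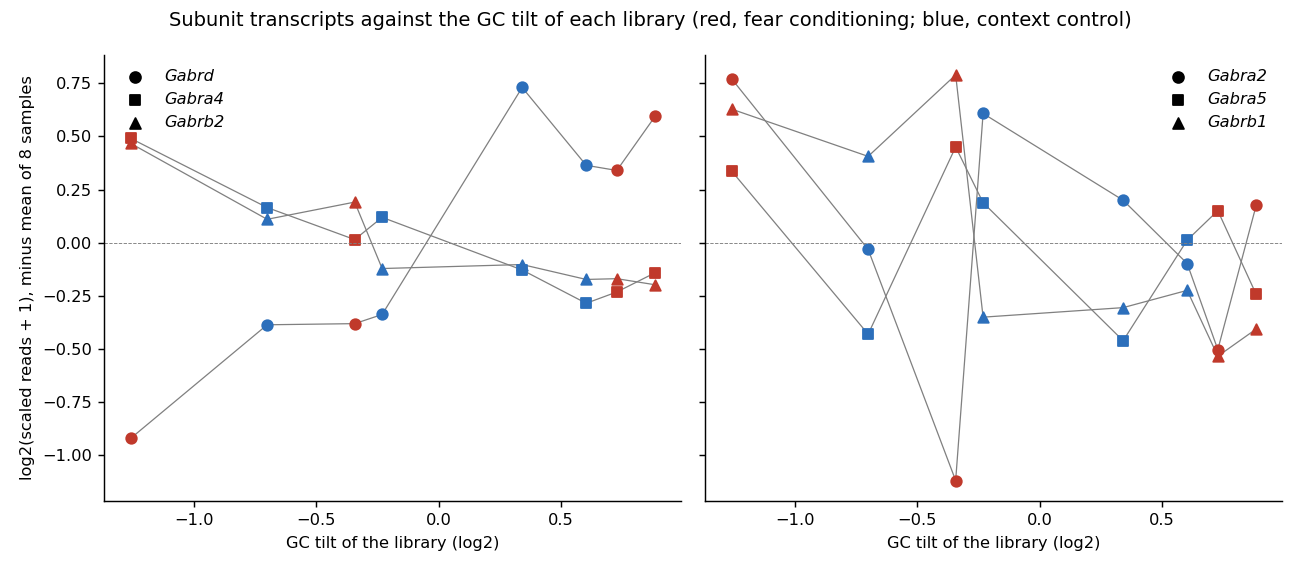
Log2 values of 6 subunit genes centred on their mean (vertical axis) against the GC tilt of each library (horizontal axis, log2), for fear conditioning (red) and context control (blue) samples, with lines joining the samples of a gene. On the left Gabrd is low and Gabra4 and Gabrb2 are high at the lowest tilt of -1.26. On the right the highest Gabra2 value falls at the lowest tilt, and its lowest value at a tilt of -0.34.

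Gabra2 and Gabra5, the genes whose spread the correction left nearly as it was, went apart in the same conditioned samples. The ratio of Gabra5 to Gabra2 scaled reads was 2.11, 1.0, 4.0 and 0.99 in fear conditioning replicates 1 to 4, against 0.845, 1.45, 1.015 and 1.0 in context control replicates 1 to 4. Conditioned replicates 1 and 3 stood above all controls, and the other conditioned samples did not. This ratio was chosen after its values were seen and was not tested. Markers of cortical layers also differed among these samples. The sum of the deep-layer markers Foxp2, Tle4, Syt6, Fezf2, Bcl11b and Ntsr1 was 1247, 806, 1577 and 1272 in fear conditioning replicates 1 to 4, against 839, 1259.7, 750.2 and 758 in context control replicates 1 to 4. The sum of the upper-layer markers Cux1, Cux2, Rorb, Calb1 and Lhx2 was 1244, 1573, 959 and 1460.2 in fear conditioning replicates 1 to 4, against 1526, 1250.3, 1477 and 1492 in context control replicates 1 to 4. Conditioned replicate 3, with the highest Gabra5 and the lowest Gabra2, had the highest sum of deep-layer and the lowest sum of upper-layer markers, with 4 of 6 deep-layer markers at their highest and 3 of 5 upper-layer markers at their lowest there. The deep-layer sum did not follow the ratio in every sample, since conditioned replicate 4 had the second highest sum with a ratio of 0.99. Between the groups, 6 of 6 deep-layer markers lay above 0 (median log2 change 0.55) and 1 of 5 upper-layer markers did (median -0.22). Of all genes tested, 51.8% lay above 0. None of these markers passed after adjustment, and none was at 0 in any sample. At an unadjusted p under 0.05 in limma there were 2 of the 6 deep-layer and 0 of the 5 upper-layer markers, beside 2.7% of all genes. The part of layer composition in these values was not tested. In tissue samples such as these, fewer cells of a type and less RNA per cell cannot be told apart.

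**Figure D4:**
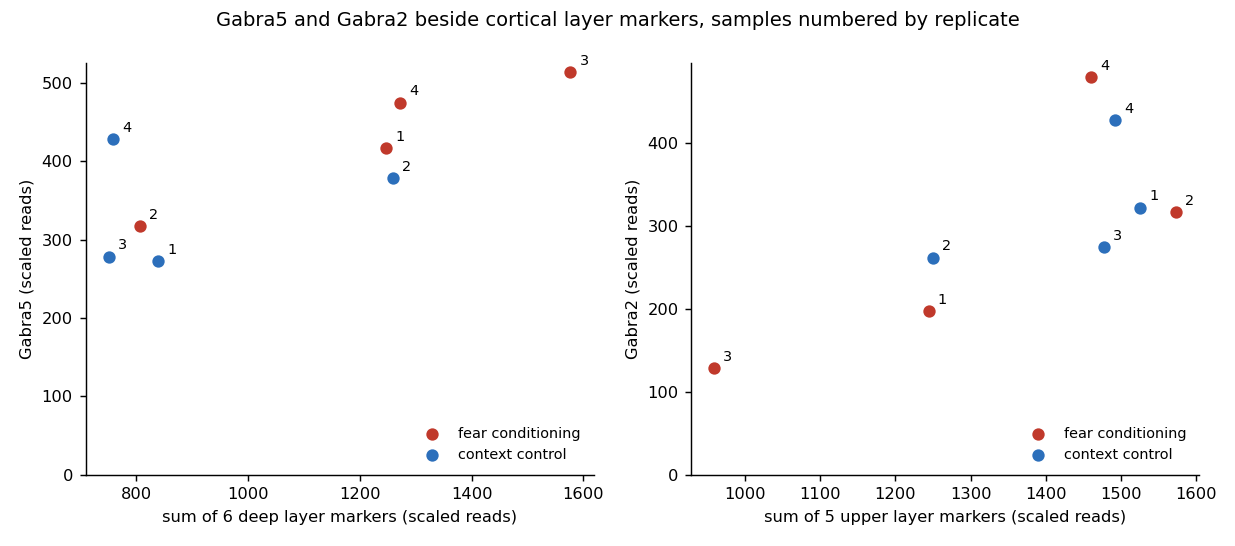
Scaled reads of Gabra5 against the sum of 6 deep-layer markers (left) and of Gabra2 against the sum of 5 upper-layer markers (right), for fear conditioning (red) and context control (blue) samples numbered by replicate. Conditioned replicate 3 has the highest Gabra5 (514) with the highest deep-layer sum (1577), and the lowest Gabra2 (128) with the lowest upper-layer sum (959). Other samples differ from this, as context control replicate 4 has a Gabra5 of 428 with a deep-layer sum of 758. Conditioned replicate 2 has the highest upper-layer sum (1573) with a Gabra2 of 317.

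Levels were compared between the genes as scaled reads per kb of the longest annotated protein-coding transcript (GENCODE vM21). Gabrb2 was the most abundant of the 7 in every sample, with a level of 487 ± 110.0 per kb in conditioned and 434 ± 38.9 per kb in control cortex (SD, n = 4 each). Gabra3 came next in all 8 samples, at 318 ± 62.7 per kb in conditioned and 282 ± 64.2 per kb in control cortex. Gabra4, at 182 ± 43.7 and 172 ± 24.9 per kb in conditioned and control cortex, exceeded Gabra5, at 161 ± 32.0 and 127 ± 28.7 per kb, in 6 of 8 samples, so the order of these neighbours was not fixed. Gabra5 in turn exceeded Gabrd in 7 of 8. Gabrd (75.6 ± 33.7 per kb in conditioned and 83.7 ± 32.1 per kb in control cortex) and Gabra2 (48.0 ± 26.3 and 54.96 ± 12.9 per kb) also overlapped, with Gabrd higher in 6 of 8 samples. Gabrb1 was lowest in every sample, at 7.44 ± 3.40 per kb in conditioned and 5.94 ± 1.63 per kb in control cortex. Its longest transcript, at 13737 bases, is far longer than the others, which run from 1921 to 5852 bases, but Gabrb1 also came last per kb of coding sequence. Per coding length Gabra2 ranked above Gabrd, and the other ranks were as before. The head-to-head neighbours Gabra4 and Gabrb1 averaged 177 and 6.69 per kb of transcript over the 8 samples, but 419 and 64.6 per kb of coding sequence, so the size of the gap between them depends on the length used.

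**Figure D5:**
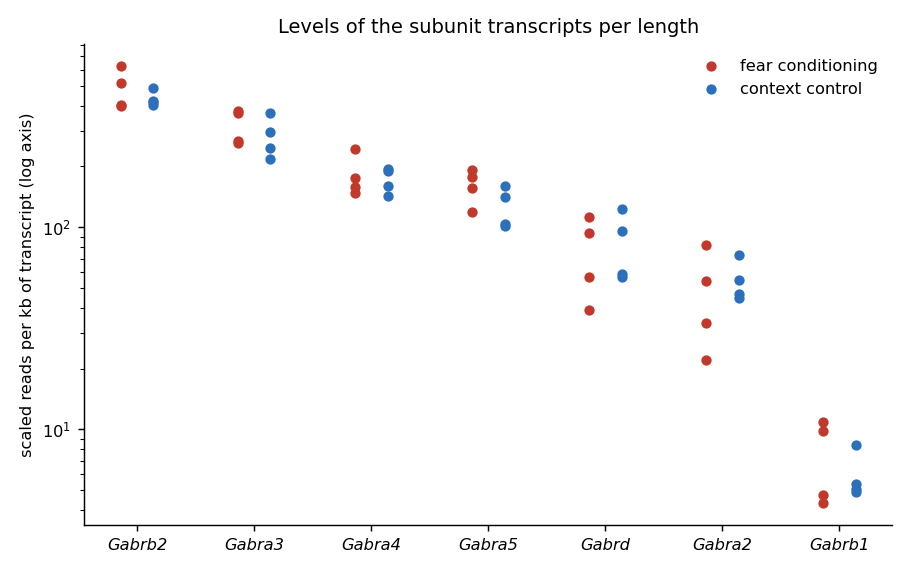
Level of each subunit gene in scaled reads per kb of its longest annotated protein-coding transcript (vertical log axis) in fear conditioning (red, left) and context control (blue, right) samples. Gabrb2 is highest and Gabrb1 lowest in all 8 samples, and Gabrd overlaps Gabra2.

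The genes nearest in pattern were taken among genes with a mean of at least 100 scaled reads, by the root mean square difference of log2 values over the 8 samples after centring each gene. For Gabrb2 these were Ints8, which encodes a subunit of the Integrator complex (difference 0.03), and the ubiquitin ligase gene Trip12 (0.04). Gabra4 had the phosphodiesterase gene Pde4d (0.05) and Atxn3 (0.06), and Gabra3 the clathrin heavy chain gene Cltc (0.05) and the deubiquitinase gene Usp14 (0.05). The nearest to Gabra5 were Ntng1, encoding the adhesion protein netrin-G1 (0.06), and Tmem200a (0.09). Gabrd lay nearest to the small GTPase gene Rnd1 (0.09) and the calcium-binding protein gene Cabp1 (0.11), and Gabrb1 to the phosphatase gene Ptpn4 (0.13) and Pik3r3 (0.16). No gene came as close to Gabra2, where the smallest differences were 0.22 for the neuropeptide Y receptor gene Npy1r and 0.28 for the growth factor gene Igf2. These distances grow with a gene's own spread and share libraries and depth, and they are descriptions without a test.

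Beyond the subunits, 0 of 60 tested genes on 5 lists of GABA signalling passed in limma, where 0.0% of all genes passed. Of these 60, 31 lay above 0 and 29 below, where 51.8% of all genes lay above 0 with a median log2 change of 0.01. At an unadjusted p under 0.05 in limma there was 1 of 11 genes of GABA synthesis, vesicle loading, uptake and breakdown. There was also 1 of 6 neurosteroid and endozepine genes and 0 on the other lists, beside 2.7% of all genes. The groups did not overlap for 2 of the 60, beside 1.92% of all genes. Of those 2, Kctd16 was higher and Slc6a12 lower in conditioned cortex, where 0.979% and 0.939% of all genes were so. The remaining GABA-A subunit rows of the table, 12 in all, included 6 that passed the filter, and their log2 changes ran from -0.30 to 0.10 with none past the threshold.

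GABA-B receptor genes, which encode the slow metabotropic receptor and its auxiliary subunits, had 0 of 6 past the threshold, with 4 estimates above 0 and a median log2 change of 0.11. Kctd16, an auxiliary subunit gene, had 48.3, 49.1, 43.7 and 48.0 scaled reads in fear conditioning replicates 1 to 4, against 30.7, 13.4, 37.3 and 40.2 in context control replicates 1 to 4. Every conditioned sample lay above every control, but the log2 change of 0.73 had a 95% interval of -0.02 to 1.47 and did not pass (limma unadjusted p = 0.0558, adjusted p = 0.9998). Gabbr2, a core subunit gene, averaged 654 ± 116 in conditioned and 549.6 ± 81.8 in control cortex (SD, n = 4 each).

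Genes for clustering and trafficking of GABA-A receptors had 0 of 26 past the threshold, with 18 above 0 and a median of 0.05. Arfgef2, which encodes an exchange factor that acts in receptor traffic, averaged 349 ± 16.6 in conditioned and 307 ± 34.7 in control cortex. Mdga1, whose product binds neuroligin-2 and limits inhibitory synapses, averaged 34.7 ± 11.5 and 59.8 ± 33.3 in conditioned and control cortex. Its groups overlapped.

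Among genes of GABA synthesis, vesicle loading, uptake and breakdown, 0 of 11 passed, 3 lay above 0, and the median was -0.03. Slc6a12, encoding the betaine and GABA transporter, was near the floor of detection at 2.76, 0, 0 and 0.959 scaled reads in fear conditioning replicates 1 to 4, against 3.32, 4.03, 8.07 and 11.3 in context control replicates 1 to 4. Its groups did not overlap, and it did not pass (limma unadjusted p = 0.0055, adjusted p = 0.9998). Slc6a13, a GABA transporter gene known from the meninges and liver, averaged 29.0 ± 15.9 in conditioned and 43.3 ± 14.1 in control cortex.

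Chloride balance genes, which set whether GABA-A channels hyperpolarize a neuron, had 0 of 11 past the threshold, with 5 above 0 and a median of -0.01. Stk39, a kinase gene of the chloride cotransporters, averaged 462 ± 78.5 in conditioned and 380.3 ± 62.5 in control cortex, and the potassium chloride cotransporter gene Slc12a7 10.2 ± 4.39 and 16.7 ± 6.90. Of the neurosteroid and endozepine genes, which make or carry modulators of GABA-A channels, 0 of 6 passed, 5 lay below 0 and the median was -0.26, while Srd5a2 and Hsd17b6 were at 0 in all samples and were not tested. Cyp11a1, the enzyme of the first step of steroid synthesis, was near the floor of detection. It had 0, 0, 0 and 3.84 scaled reads in fear conditioning replicates 1 to 4, against 9.14, 2.69, 10.1 and 4.83 in context control replicates 1 to 4. Conditioned replicate 4 lay above the lowest control, and the gene did not pass (limma unadjusted p = 0.00579, adjusted p = 0.9998). Srd5a1, encoding a steroid 5-alpha-reductase, averaged 27.4 ± 13.7 in conditioned and 32.6 ± 8.47 in control cortex.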

How the data were processed

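RNA from 8 samples of medial prefrontal cortex was sequenced, and samples were grouped by their titles. Per the submitters' processing notes, the tools were TopHat and HTSeq, with no version given, and the build was the human hg19 although the samples are mouse. The deposited signal is named FPKM. All values above 0 (100%) came out as whole multiples of a step of their column (0.831 to 1.61), within 0.01 of a read. The authors' signal was therefore taken as read counts per gene times a constant for each sample, without length correction. How the constant was set, and whether libraries kept strand, is not given in the sources used here.

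Genes with a mean of at least 1 were tested in limma 3.58.1 under R 4.3.3 (variance trend, two-sided) on log2(value + 1), a scale that understates the change of low genes. Alternatives included edgeR 4.0.16 and DESeq2 1.42.0, both on the recovered reads. The fits were run on simulated reads with large known changes and without GC tilt, which does not bear on small changes in these libraries. The chi-square per degree of freedom between replicates of a group was 2.56 to 25.3 over 12 pairs, so no pair agreed within sampling noise. Lengths, GC content and promoters were matched by symbol. The GC correction used lowess curves of span 0.3, fitted where the mean log2 value exceeded 5.

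Members and lists were chosen with earlier results of these data known. Named genes were the 7 members, the 2 genes nearest each in pattern, and from each list the 2 members with the smallest p. The rule also covered the other GABA-A subunit genes, which are given here as a group without names. The upper-layer marker list is used without 1 of its genes, which is not reported here.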

Additional observations from a re-analysis of the deposited data

Results flagged for a closer look

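Within the groups of 4, a lowest or highest sample standing far from the other 3 was looked for, where chance gives about 1 in 20 for either end. It was found in 2 of 34 sets of values examined, each time for the highest sample. The sets share the same libraries and include genes picked by small p, so they are not independent draws at that rate. Cyp11a1 read 3.84 scaled reads in fear conditioning replicate 4 and 0 in the other 3 conditioned samples. With those 3 at 0, any value above 0 would have been flagged, so the chance of 1 in 20 does not apply to Cyp11a1. Gabrb1 read 115 scaled reads in the third context control, where the rest of that group held 67.6 to 73.9. That library also had the highest sums of oligodendrocyte, astrocyte, microglia and endothelial markers, and the lowest GC tilt of the controls (-0.70). The part of either in the Gabrb1 value was not tested. With GC correction, the log2 value of Gabrb1 was 6.65 in context control replicate 3, against 6.06 to 6.40 in the other controls. As deposited, its exact Poisson 95% interval in replicate 3 was 94.8 to 138.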

How the results depend on the processing

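The 24 alternatives covered pseudocounts, filters, scalings, array weights, edgeR, DESeq2, a replicate block, GC correction, subsets of replicate numbers and each sample left out. No member passed in any of them, and the smallest adjusted p of a member was 0.705. Over all genes, 2 passed in replicates 1 and 2 only, and between 0 and 1 with a sample left out, the 1 without fear conditioning replicate 4. In the other alternatives 0 passed. With a sample left out, limma gave Gabra5 an unadjusted p of 0.046 without context control replicate 4 and 0.028 without fear conditioning replicate 2. Gabra2 had an unadjusted p of 0.031 in limma without fear conditioning replicate 4. In these fits 400, 595 and 802 of the 14704 genes, in that order, had an unadjusted p under 0.05. Gabra2, Gabra3 and Gabra5 kept their direction in all 24, but some of these, such as the filters and the replicate block, cannot move a log2 change. The Gabra2 change was -0.02 without fear conditioning replicate 3. In replicates 1 and 2 only, Gabrb1 was -0.21 and Gabrb2 -0.046, and in replicates 3 and 4 only they were 0.68 and 0.34. With a sample left out, Gabra4 ran from -0.087 to 0.15 and Gabrd from -0.41 to 0.092. The subsets, the term for them and GC correction were chosen after seeing the data, and the cause of these reversals was not tested. Deviations of same-numbered samples correlated by 0.23, 0.25, 0.07 and 0.11 for numbers 1 to 4. The third is under 0.1 and not every sample correlated best with its own number, so the numbers were not taken as pairs. Correlations between groups were positive (0.07 to 0.48) within numbers 1 and 2 or within 3 and 4, and negative (-0.09 to -0.38) across them. The replicate block left the count of genes past the threshold at 0, and in this balanced layout it cannot move a log2 change (0.35 for Gabra5 in both fits). At an unadjusted p under 0.05 the block gave 594 of 14704 genes in limma against 397 without it. The term for replicates 1 and 2 against 3 and 4 gave 870, GC correction 824, and both GC correction and the block 863. Chance alone gives a share of about 0.05 at this threshold, and no gene passed after adjustment in any of these fits. Depth limits Gabrb1 most, at 42 to 140 reads a sample.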

Other observations

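Gabra2 and Gabra5 had the same number of recovered reads in 2 of the 8 libraries, 239 in fear conditioning replicate 2 and 266 in context control replicate 4. In fear conditioning replicate 3 they had 94 and 376.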
